A study of Mus musculus with 10 samples.

Results

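The nuclear genes of the respiratory chain were followed in inguinal white adipose tissue (iWAT), the fat pad under the skin of the groin, of male C57BL/6 mice. The genes were chosen by name: protein-coding genes outside the mitochondrial chromosome whose symbols start with Nduf (complex I), Uqcr (complex III), Cox followed by 4 to 8 (complex IV) or Atp5 (complex V), except Cox7a1 and Cox8b. This gave 87 of the 51826 genes listed, with 46 in complex I, 8 in complex III, 16 in complex IV and 17 in complex V. RNA-seq was done on whole tissue, with 1 library per mouse. The F0 males were fed a control diet (CD, n = 2) or a low-protein diet (LPD, n = 2) from weaning and were sampled at 10 to 12 weeks of age. The F1 males were offspring of CD-fed fathers (n = 3) or LPD-fed fathers (n = 3), had CD-fed mothers, ate CD themselves after weaning and were sampled at 5 weeks of age. The 3 offspring of a group came from different mothers. The comparisons ask whether the diet of the father, or of the mouse itself, moved the expression of the respiratory chain genes in this fat pad.

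The respiratory chain is the row of protein complexes in the inner mitochondrial membrane that passes electrons from nutrients to oxygen and uses the energy to pump protons. Complex I takes electrons from NADH, complex III passes them to cytochrome c, complex IV (cytochrome c oxidase) hands them to oxygen, and complex V (ATP synthase) lets the protons back to make ATP. Complexes I, III, IV and V are mosaics, built from many proteins encoded in the nucleus and a few encoded in mitochondrial DNA. White fat cells hold few mitochondria, whereas beige and brown fat cells and muscle fibres hold many.

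The exon reads per library ranged from 6351075 to 10044546, so a level of 3 reads was worth 0.299 to 0.472 CPM (reads scaled to a common library size of 1000000). The 87 genes took 76702 to 112621 of these reads per library, and 75 of the 87 genes had at least 100 reads in every library. The fat cell hormone gene Adipoq was at 1168 to 2368 CPM in the 10 libraries. The summed level of 10 skeletal muscle markers was 3500 to 5428 CPM in the F0 CD mice, 1650 to 2245 CPM in the F0 LPD mice and 162 to 476 CPM in the F1 mice. Reads on exons made up 51.6% to 59.3% of the exon and intron reads of nuclear protein-coding genes in the 3 F1 LPD libraries, below the 62.1% to 64.0% of the other libraries. In bulk tissue, fewer cells of a type and less RNA per cell cannot be told apart.

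The most abundant transcripts per exon length came from complexes IV and V. In RPKM, the authors' unit that scales reads to exon length and library size, Cox8a, a small subunit of cytochrome c oxidase, ranked first of the 87 genes in each of the 4 groups. Its mean level was 262 ± 10.2 RPKM (SD, n = 3) in F1 CD and 249 ± 5.27 RPKM (SD, n = 2) in F0 CD. Atp5b, the catalytic beta subunit of ATP synthase, was at 219 ± 4.40 RPKM (SD, n = 3) in F1 CD. These levels stood well above the typical complex I subunit. Medians were taken by name start, leaving aside genes classed as assembly factors or tissue isoforms. Ndufa4, since moved to complex IV, thus counts in complex I, and Cox7a2l, not strictly a subunit, counts in complex IV. In F1 CD the median RPKM was 32.4 over 37 complex I genes and 61.7 over 8 complex III genes. It was 64.9 over 11 complex IV genes and 47.5 over 15 complex V genes. Assembly factors help to build the complexes without staying in them. The 10 genes classed as such here, 8 Ndufaf genes with Atp5s and Atp5sl, had a median of only 4.17 RPKM.

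Several members were hardly expressed. Cox7b2 had no read in any library, a count that allows up to 0.299 to 0.472 CPM per library. Cox8c, an isoform best known from testis, had 2 reads in each of 2 F1 LPD libraries and none in the other 8. Cox6b2, the testis isoform of subunit 6b, had 4 to 13 reads per library, and Cox4i2, the isoform of subunit 4 known from lung, had 5 to 24. Reads of 7 members were less than 50% unique. These were Atp5g2 (1.19% unique), Cox7c, Ndufb4, Ndufs5, Cox6a2, Atp5h and Ndufab1, and their values are uncertain for that reason. Where their other reads also match was not tested.

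The summed level of each complex was of the same size in offspring of LPD-fed and CD-fed fathers. Over all 87 genes it was 14104, 13034 and 12398 CPM in the F1 CD mice and 13192, 11655 and 12894 CPM in the F1 LPD mice, so the groups overlapped. Complex I summed to 4213 ± 225 CPM in F1 CD and 4036 ± 252 CPM in F1 LPD (SD, n = 3 each). Complex III summed to 1789 ± 116 and 1653 ± 120 CPM, complex IV to 2329 ± 177 and 2207 ± 162 CPM, and complex V to 4848 ± 347 and 4684 ± 303 CPM. Each of these differences was smaller than the sum of the SDs of its groups.

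**Figure D1:**
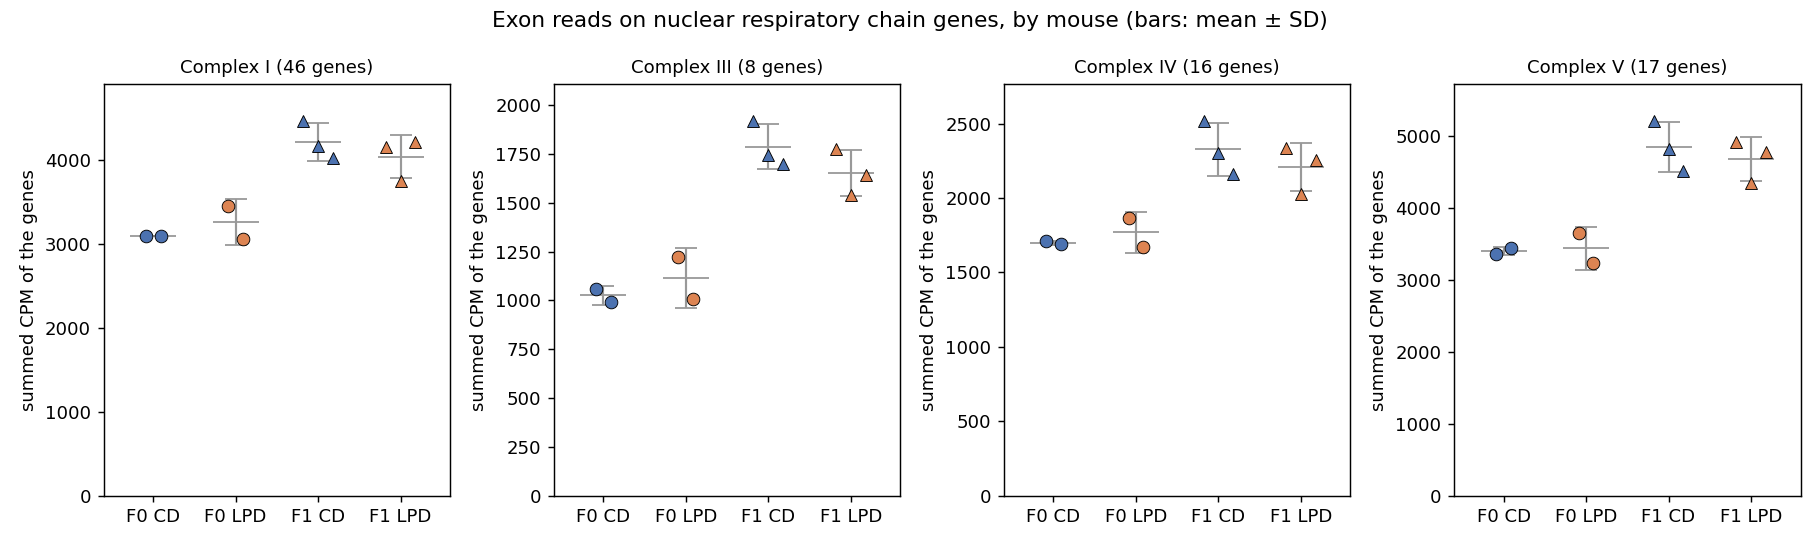
Summed CPM of the nuclear genes of complexes I, III, IV and V (vertical axes, from 0) in each mouse of the 4 groups (horizontal axes), with the mean and SD as bars. In every panel the F1 mice sit above the F0 mice, while CD and LPD mice of the same generation lie close together.

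No member passed the test between the F1 groups. With edgeR's quasi-likelihood test, 0 of 84 members tested had an adjusted p under 0.05, against 1.17% of all genes tested. At an unadjusted p under 0.05 there were 0 higher members, against 6.57% of all genes, and 5 lower members, that is 5.95%, against 8.76%. DESeq2 and limma on RPKM also called 0 members. The log2 fold change was negative for 61 of the 84 members, against 48.6% of all genes, with a median of -0.07, and the median of all genes was 0.01. The 95% interval of the fold change lay within 1 log2 unit of 0 on both sides for 80 of the 84 members, and within 0.5 for 70 of them. Markers of other cell types moved in this comparison. Of 5 macrophage markers, 3 were called lower in F1 LPD, and the list summed to 858 to 1034 CPM in F1 CD and 610 to 682 CPM in F1 LPD. Of 5 epithelium markers, 3 were tested and 2 called lower, at low levels. That list summed to 8.56 to 12.8 CPM in F1 CD and 0.153 to 3.25 CPM in F1 LPD. None of the 6 adipocyte markers or of the 8 skeletal muscle markers tested was called. The part of these markers in the values of the members was not tested.

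Among complex I genes, the 7 core subunits, which carry the electron path, had log2 fold changes of -0.24 to 0.12 in F1. Ndufs1, the largest of them, was at 250, 237 and 242 CPM in F1 CD and 272, 254 and 263 CPM in F1 LPD. Its groups did not overlap, yet the fold change was 0.12 (SE 0.08) with an adjusted p of 0.514 in edgeR's test. In RPKM the direction was the other way, with means of 25.1 ± 0.685 in F1 CD and 24.4 ± 1.17 in F1 LPD (SD). The median fold change of all genes on RPKM was negative in F1 as well, as given with the dependence on processing. The lowest fold change in complex I was that of the assembly factor Ndufaf2, at -0.54 (SE 0.25), from 39 to 54 reads in F1 CD and 27 to 29 reads in F1 LPD (adjusted p = 0.327). On reads over the whole gene its fold change turned to 0.04. Ndufs5, an accessory subunit of which 26.9% of the reads were unique, was at -0.29 (SE 0.09, adjusted p = 0.163).

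The member nearest to the threshold in F1 belonged to complex III. Uqcrq, a small accessory subunit, was at 238, 222 and 201 CPM in F1 CD and 180, 154 and 191 CPM in F1 LPD. All 3 F1 LPD mice were below all 3 F1 CD mice, and the log2 fold change was -0.33 (SE 0.10). Its edgeR adjusted p of 0.151 missed the threshold. Groups did not overlap for 10 members in the lower direction and 4 in the higher, 11.9% and 4.76% of the members, against 10.9% and 9.21% of all genes.

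In complex IV, Cox4i1, the ubiquitous isoform of subunit 4, was at 419, 395 and 396 CPM in F1 CD and 447, 353 and 400 CPM in F1 LPD, and its fold change was -0.00 (SE 0.10). The rare isoforms Cox4i2 (0.76, SE 0.36, adjusted p = 0.350) and Cox6b2 (0.85, SE 0.46, adjusted p = 0.416) had the highest fold changes, on 9 to 24 and 4 to 13 reads per F1 library. In complex V, the F1 head subunits Atp5a1 and Atp5b had fold changes of -0.03 (SE 0.10) and -0.02 (SE 0.11).

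The regulators gave one call in F1. Ppargc1a encodes PGC-1alpha, a coactivator known to raise transcription of nuclear respiratory chain genes. It was at 18.9, 16.2 and 16.5 CPM in F1 CD and 46.7, 27.0 and 32.9 CPM in F1 LPD, and rose by a log2 fold change of 1.05 (SE 0.18, adjusted p = 0.0260 in edgeR's test). It was 1 of 7 regulators in a list that also held Ppargc1b, Esrra, Nrf1, Gabpa, Tfam and Yy1. None of the other 6 passed. It is also 1 of the 7 beige or brown fat markers, of which no other was called in F1. The interaction of diet and generation passed for Ppargc1a as well (1.44, SE 0.30, adjusted p = 0.0410), and the F0 fold change was -0.40 (SE 0.18, adjusted p = 0.343). These calls were not stable. With the exon share of each library as covariate the F1 fold change of Ppargc1a was 0.46 (adjusted p = 0.594), and on RPKM it was 0.81 (adjusted p = 0.0617). With 1 mouse left out it was 0.81 to 1.21, and the call was lost without F1 CD replicate 1 (1.12, adjusted p = 0.0945), F1 CD replicate 2 (1.01, adjusted p = 0.125) or F1 LPD replicate 1 (0.81, adjusted p = 0.0541). The interaction was 0.30 on reads over the whole gene (adjusted p = 0.545), and it passed in 3 of 10 leave-one-out fits.

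In the F0 males, which ate the diets themselves, 1 of 84 members passed the test, against 2.5% of all genes tested and 1.32% called in its direction, lower. At an unadjusted p under 0.05, 4 members were higher, against 7.53% of all genes, and 5 were lower, against 8.2%. The summed level of the 87 genes was 9227 and 9215 CPM in F0 CD and 10190 and 8972 CPM in F0 LPD, so the LPD mice lay on both sides of the CD mice. The median log2 fold change of the members was 0.04, beside 0.00 over all genes, and 55 members were positive, against 50.1% of all genes. A list of 17 subunits had fold changes of -0.17 to 0.25, with a smallest adjusted p of 0.280 in edgeR's test. It held the core subunits of complexes I and III with Cox4i1, Cox5a, Cox5b, Atp5a1, Atp5b, Atp5c1 and Atp5d.

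The call in F0 was Cox6a2, the isoform of cytochrome c oxidase subunit 6a found in skeletal and heart muscle. It had 75 and 157 reads in F0 CD (8.39 and 15.7 CPM) and 34 and 21 reads in F0 LPD (3.57 and 2.46 CPM), and fell by 1.99 on the log2 scale (SE 0.34, adjusted p = 0.0248 in edgeR's test). Its groups did not overlap, as was so for 23.6% of all genes in that direction. The skeletal muscle markers moved with it: 6 of the 10 were called lower in F0 LPD, and their part in the Cox6a2 result was not tested. Only 30.8% of the Cox6a2 reads were unique. The call was lost without F0 CD replicate 2 (-1.46, adjusted p = 0.0738), without F0 LPD replicate 2 (-1.76, adjusted p = 0.116), on reads over the whole gene (adjusted p = 0.0521) and on RPKM (adjusted p = 0.0537). Its partner Cox6a1, the isoform of most tissues, was at 210 and 210 CPM in F0 CD and 259 and 227 CPM in F0 LPD (0.21, SE 0.10, adjusted p = 0.357).

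Genes for subunit c of ATP synthase came next. Atp5g1, Atp5g2 and Atp5g3 encode the same mature protein, which forms the rotating ring of the enzyme. Atp5g1 was at 32.2 and 36.8 CPM in F0 CD and 24.1 and 25.0 CPM in F0 LPD (-0.49, SE 0.11, adjusted p = 0.0634). Atp5g3 was at 83.7 and 92.7 CPM in F0 CD and 68.3 and 68.4 CPM in F0 LPD (-0.37, SE 0.09, adjusted p = 0.0746). Both were below the CD mice in both LPD mice, as was so for 8 of the 84 members (9.52%) and 23.6% of all genes. Neither passed the threshold, though Atp5g1 passed with no filter on low counts (adjusted p = 0.00408) and when replicate numbers formed a block (adjusted p = 0.00253). Atp5g2 had a fold change of 0.09 (SE 0.08). On the higher side, Ndufb4, a complex I accessory subunit, was at 77.0 and 79.2 CPM in F0 CD and 99.0 and 96.1 CPM in F0 LPD (0.32, SE 0.08, adjusted p = 0.0896), with 24.2% unique reads, and passed with no filter (adjusted p = 0.0365) and with the block (adjusted p = 0.0100).

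**Figure D2:**
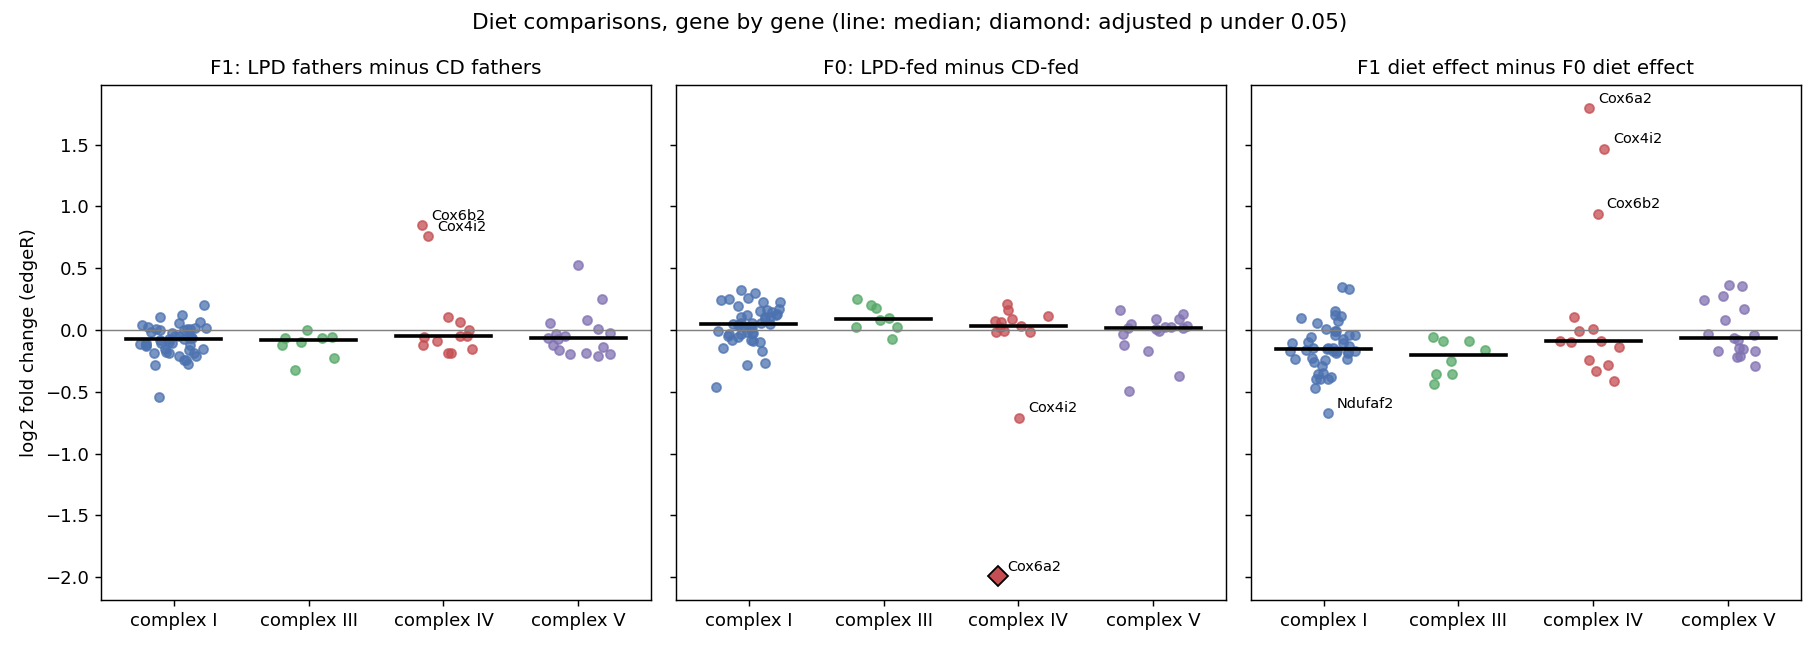
Log2 fold changes from edgeR (vertical axis) of the members of each complex (horizontal axis) for the F1 comparison, the F0 comparison and the difference between them. Each point is 1 gene, lines are medians, and the diamond is the single call, Cox6a2 in F0 at -1.99. Apart from a few weakly expressed isoforms and assembly factors, the points lie close to 0.

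The 2 isoforms that the name rule leaves out behaved differently from the members in F0. Cox7a1 and Cox8b are the muscle and brown fat isoforms of cytochrome c oxidase subunits. Cox7a1 was at 13.4 and 8.69 CPM in F0 CD and 35.5 and 25.7 CPM in F0 LPD and rose by a log2 fold change of 1.48 (SE 0.22, adjusted p = 0.0169). Cox8b was at 72.4 and 39.9 CPM in F0 CD and 144 and 110 CPM in F0 LPD and rose by 1.19 (SE 0.24, adjusted p = 0.0412). The Cox7a1 call was lost on RPKM (adjusted p = 0.0537). The Cox8b call was lost with DESeq2 (adjusted p = 0.216), on RPKM (adjusted p = 0.107), on whole gene reads (adjusted p = 0.0665), without F0 LPD replicate 1 (adjusted p = 0.118) and without F0 LPD replicate 2 (adjusted p = 0.0553). Their ubiquitous counterparts did not pass in F0: Cox7a2 was at 0.08 (SE 0.09, adjusted p = 0.761) and Cox8a at 0.04 (SE 0.09, adjusted p = 0.907). Of 7 beige or brown fat markers, a list that includes Cox7a1 and Cox8b, 5 rose in F0 LPD, and the list summed to 144 to 271 CPM in F0 CD and 646 to 757 CPM in F0 LPD. Ucp1, the uncoupling protein of brown fat, rose by 2.89 (SE 0.47, adjusted p = 0.0196). The summed beige or brown markers did not overlap between the diets in F0, whereas the summed level of the 87 genes overlapped.

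**Figure D3:**
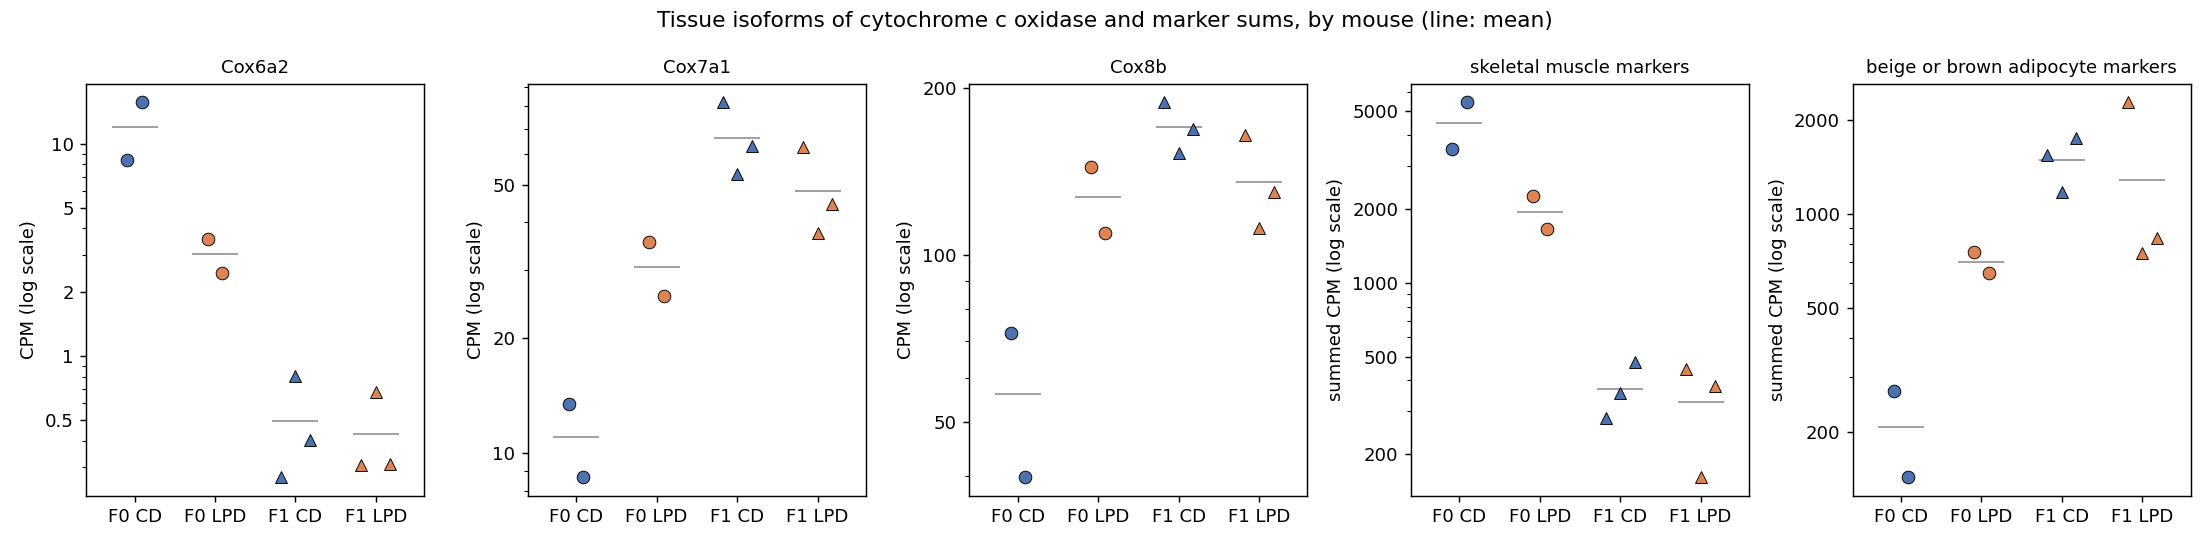
CPM of Cox6a2, Cox7a1 and Cox8b and summed CPM of skeletal muscle and beige or brown fat markers (vertical axes, log scale) in each mouse of the 4 groups, with lines at the means. Cox6a2 and the muscle markers are highest in the 2 F0 CD mice, while Cox7a1, Cox8b and the beige or brown markers are lowest there.

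The diet effect did not differ detectably between the generations for any member. Of 85 members tested, 0 had an interaction with an adjusted p under 0.05 in edgeR's test, against 1.25% of all genes. At an unadjusted p under 0.05, 2 were higher, against 4.91% of all genes, and 8 lower, against 7.58%, and DESeq2 and limma on RPKM called 0. The median interaction was -0.13 on the log2 scale, beside -0.00 over all genes, and 65 members were negative, 76.5% against 50.4% of all genes. Uqcr10, a small subunit of complex III, had the smallest adjusted p, 0.239, with an interaction of -0.44 (SE 0.16). It was at 98.3 and 94.1 CPM in F0 CD, 118 and 103 CPM in F0 LPD, 165, 154 and 142 CPM in F1 CD and 148, 115 and 130 CPM in F1 LPD. The SEs of the interaction were 0.12 to 0.82, with a median of 0.16, so that small differences between the generations could not be detected.

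The groups differed most between generations on the same diet. In F0 CD against F1 CD, 51 of 85 members were called lower in F0 by edgeR's test, that is 60.0%, against 10.1% of all genes, and 2 were called higher, against 8.78%. The summed level of the 87 genes was 9221 ± 8.14 CPM in F0 CD (SD, n = 2) and 13179 ± 862 CPM in F1 CD (SD, n = 3). The median log2 fold change of the members was -0.50, beside -0.01 over all genes. Generation, age (10 to 12 against 5 weeks) and the set of libraries coincide, so they cannot be told apart here. With 1 mouse left out, the median of the members ranged from -0.55 to -0.46, and fewer members were called without F0 CD replicate 2.

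The calls were spread over the complexes. In complex I 28 of 46 members were lower, in complex III 7 of 8, in complex IV 6 of 14 and in complex V 10 of 17. Of the 10 members classed as assembly factors only Ndufaf4 was called lower (-0.67, SE 0.12, adjusted p = 0.00261). Their median was -0.19, with 9 of the 10 negative. The positive one was Atp5s (0.80, SE 0.30, adjusted p = 0.0867), and the 8 Ndufaf genes were all negative, with a median of -0.22. Of the 71 members that are neither assembly factors nor tissue isoforms, 50 were lower, with a median of -0.53. The difference between these groups of genes was not tested, and in the LPD mice the medians were -0.44 for the assembly factors, with 3 called lower, and -0.45 for the 71 others. The fold changes hardly followed the exon length of the genes (Spearman's rho -0.02 over 85 members), and rho with the mean CPM was -0.23, both across genes of the same libraries.

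Complex III had the member with the largest decrease. Uqcrfs1, the Rieske iron-sulfur protein that takes electrons from ubiquinol, was at 122 and 104 CPM in F0 CD and 285, 269 and 267 CPM in F1 CD, and was lower by a log2 fold change of -1.28 (SE 0.13, adjusted p = 3.0e-05 in edgeR's test). Uqcrh, the hinge protein of the complex, was at 77.7 and 69.1 CPM in F0 CD and 178, 155 and 151 CPM in F1 CD (-1.13, SE 0.11). The core protein gene Uqcrc1 was at 230 and 214 CPM in F0 CD and 458, 415 and 438 CPM in F1 CD (-0.98, SE 0.11). The groups did not overlap for these 3 genes, as for 64 of the 85 members in the lower direction (75.3%), against 25.2% of all genes. Uqcrb was the exception in this complex, at 84.3 and 80.0 CPM in F0 CD and 111, 99.3 and 81.0 CPM in F1 CD (-0.24, SE 0.12, adjusted p = 0.187), and its reads were only partly unique.

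In complex I, the accessory subunits Ndufb6 (-1.18, SE 0.12), Ndufa1 (-1.06, SE 0.15), Ndufa2 (-0.95, SE 0.13) and Ndufb2 (-0.94, SE 0.14) were furthest down. Ndufb6 was at 27.3 and 25.1 CPM in F0 CD and 68.1, 54.4 and 55.2 CPM in F1 CD. Of the 7 core subunits, 6 were called lower, with fold changes of -0.90 to -0.33. The call nearest the threshold, Ndufs7 (-0.33, adjusted p = 0.0480), passed in 3 of 10 leave-one-out fits. The 2 core subunits of the NADH-binding tip gave different values. Ndufv1, which binds NADH, was at 130 and 121 CPM in F0 CD and 239, 233 and 234 CPM in F1 CD (-0.90, SE 0.10, adjusted p = 8.86e-05). Ndufv2, which sits beside it, was at 155 and 169 CPM in F0 CD and 166, 167 and 154 CPM in F1 CD (-0.00, SE 0.09, 95% interval -0.20 to 0.20). The ratio of Ndufv1 to Ndufv2 reads was accordingly 0.721 to 0.878 in the 4 F0 mice and 1.40 to 1.58 in the 6 F1 mice. Ndufa12, an accessory subunit with 66.0% unique reads, was at 88.9 and 97.2 CPM in F0 CD and 75.3, 80.0 and 64.9 CPM in F1 CD and was not called (0.34, SE 0.11, adjusted p = 0.0542). It was called higher in 7 of 10 alternatives, among them the LPD mice (0.37, adjusted p = 0.0480), and in 3 of 10 leave-one-out fits.

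In complex IV, Cox5a, a subunit next to the catalytic core, was at 66.3 and 59.9 CPM in F0 CD and 147, 147 and 137 CPM in F1 CD (-1.19, SE 0.11, adjusted p = 2.29e-05). Cox5b, its neighbour in the complex, was at 130 and 121 CPM in F0 CD and 173, 144 and 142 CPM in F1 CD (-0.28, SE 0.14, adjusted p = 0.168), with 69.5% unique reads. The abundant Cox8a was at -0.21 (SE 0.09, adjusted p = 0.140). Cox6a2 was the only complex IV member called higher, at 75 and 157 reads in F0 CD and 2, 7 and 3 reads in F1 CD (4.53, SE 0.44), and all 10 skeletal muscle markers were called higher as well. Their part in this result was not tested.

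In complex V, Atp5e, the epsilon subunit of the F1 head, was at 55.4 and 62.6 CPM in F0 CD and 154, 129 and 142 CPM in F1 CD (-1.26, SE 0.11, adjusted p = 1.59e-05). Other head subunits were lower by less, with -0.68 (SE 0.11) for Atp5a1, -0.67 (SE 0.10) for Atp5d and -0.49 (SE 0.11) for Atp5b. Atp5c1, the gamma subunit that forms the central stalk, was at 208 and 232 CPM in F0 CD and 226, 206 and 201 CPM in F1 CD, and its groups overlapped (0.06, SE 0.10, 95% interval -0.15 to 0.27). The subunit c genes split, with Atp5g3 lower (-0.73, SE 0.15, adjusted p = 0.00427), Atp5g1 higher (0.41, SE 0.13, adjusted p = 0.0410) and Atp5g2 at -0.01 (SE 0.10). The Atp5g1 call was lost with DESeq2 (adjusted p = 0.0741) and passed in 3 of 10 leave-one-out fits, with fold changes of 0.31 to 0.50. The ratio of Atp5g1 to Atp5g3 reads was 0.352 to 0.397 in the F0 mice and 0.164 to 0.204 in the F1 mice.

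**Figure D4:**
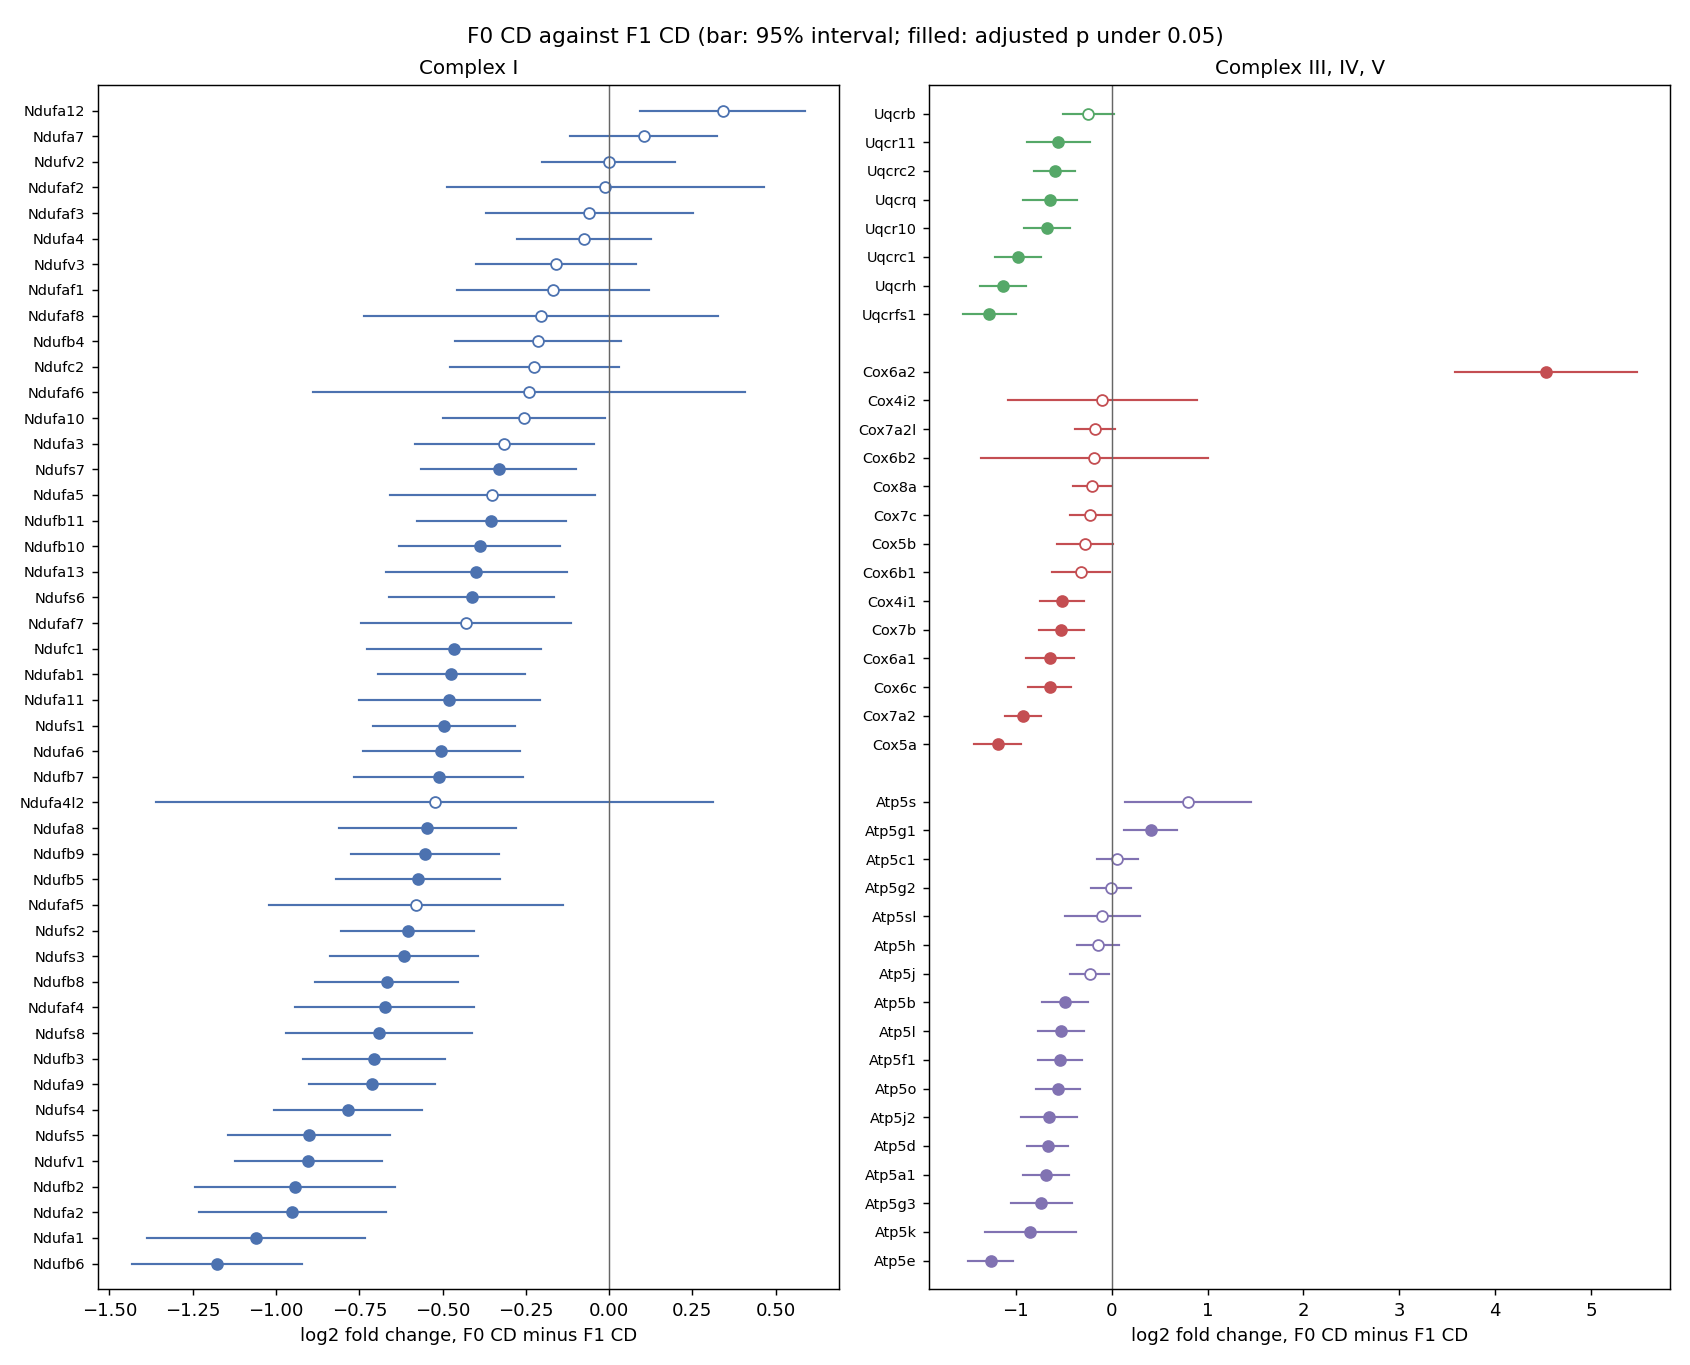
Log2 fold change of F0 CD against F1 CD (horizontal axes, on different scales in the panels) for the 85 members tested, listed by complex from highest to lowest. Bars are 95% intervals and filled points passed the threshold. In complex III all intervals but that of Uqcrb lie below 0, and Cox6a2 at 4.53 stands alone on the right.

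The LPD mice, which share no library with the CD mice, gave a second comparison of the generations. Fitted alone, F0 LPD against F1 LPD had 42 of 85 members lower, against 8.27% of all genes, and 2 higher, against 8.61%. A fit of the CD libraries alone called 50 lower. Of these genes 38 were lower in both fits, 76.0% of the CD list and 90.5% of the LPD list. The shares over all genes, for this overlap and for the count from the CD libraries alone, are not given here. Generation, age and the set of libraries coincide in both fits. Uqcrfs1 was at -1.03 (adjusted p = 0.00122), Atp5e at -0.98 (adjusted p = 0.000520) and Cox5a at -0.91 (adjusted p = 0.00156) in the LPD mice, and Ndufv2 was at 0.12 (adjusted p = 0.435). Atp5g1, called higher between the CD groups, was at 0.13 (adjusted p = 0.561).

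Promoters of some members that were called lower in F0 CD are shown as a description. Windows from 250 bases before to 50 bases after the transcription start were matched for 72 of the 87 members, with sequences and starts from RefSeq on GRCm38.p6. They were searched on both strands for the letters GCGCATGC of nuclear respiratory factor 1 (NRF1), CCGGAAGT of the ETS factor GABPA, AAGATGGC of YY1, CAAGGTCA of the oestrogen-related receptor ESRRA and for the MEF2 motif of muscle genes. The NRF1 letters were in 11 of the 72 members (15.3%) and in 3.94% of 17492 protein-coding genes. The YY1 letters were in 12 (16.7%, against 3.57%), mostly after the start site, and the ESRRA letters in 3 (4.17%, against 1.56%). The GABPA letters were in 5 (6.94%, against 5.69%) and the MEF2 letters in 2 (2.78%, against 4.01%). A match of letters is not evidence of binding.

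The 150 bases before the start are given 5′ to 3′ on the strand of the gene, all on the minus strand here, with searched letters in capitals. Uqcrh lies at chr4:116075071-116075220 and holds the GABPA letters, Atp5k at chr5:108434400-108434549 holds the NRF1 letters on both strands, overlapping as a palindrome, and Atp5g3 at chr2:73911327-73911476 holds the ESRRA letters. Uqcrfs1 at chr13:30545317-30545466, the member with the largest decrease, holds none of them in this stretch. These stretches are examples and not a random sample, since most members with a window hold no searched letters in theirs.
Uqcrh: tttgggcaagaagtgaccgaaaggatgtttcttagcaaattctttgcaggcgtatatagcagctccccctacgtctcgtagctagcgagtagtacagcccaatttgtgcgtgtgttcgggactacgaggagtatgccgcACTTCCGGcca
Atp5k: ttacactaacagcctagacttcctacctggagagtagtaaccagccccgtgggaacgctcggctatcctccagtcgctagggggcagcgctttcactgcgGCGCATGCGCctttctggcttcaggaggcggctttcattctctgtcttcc
Atp5g3: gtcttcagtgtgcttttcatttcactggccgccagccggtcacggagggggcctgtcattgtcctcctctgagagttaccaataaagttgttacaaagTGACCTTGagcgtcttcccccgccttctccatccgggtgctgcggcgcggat
Uqcrfs1: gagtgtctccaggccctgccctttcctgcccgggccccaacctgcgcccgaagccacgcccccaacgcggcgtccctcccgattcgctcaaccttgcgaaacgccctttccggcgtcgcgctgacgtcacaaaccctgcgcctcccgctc

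The fold changes between F0 CD and F1 CD are given beside the letters as a description. The median was -0.55 for the 11 tested members with NRF1 letters, of which 9 were called lower, and -0.41 for the 60 without, of which 33 were. For the 12 with YY1 letters it was -0.44, with 8 called lower, and for the 59 without it was -0.49, with 34 called lower. The mRNAs of the factors themselves differed in their values. Esrra was lower in F0 CD (-0.87, SE 0.11, adjusted p = 0.000162), Nrf1 was at 0.01 (SE 0.11), Gabpa at -0.05 (SE 0.17) and Yy1 at 0.08 (SE 0.07). Tfam, which packs and transcribes mitochondrial DNA, was lower (-0.46, SE 0.12, adjusted p = 0.0225), a call that was lost on RPKM (adjusted p = 0.101), in the LPD mice (-0.26, adjusted p = 0.235) and without any of 4 of the 10 mice in turn.

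Nuclear genes of the chain outside the name rule were called lower in part. Of 6 genes for complex II, cytochrome c1 and cytochrome c, 5 were lower in F0 CD, with Cyc1 at -0.87 (SE 0.12) and Sdhc at -0.68 (SE 0.09). Cycs, which encodes cytochrome c, was at 0.18 (SE 0.10, adjusted p = 0.231). Of 23 assembly factors named otherwise, 11 were lower, 12 were not called and none was higher. In the LPD mice 4 of the 6 and 8 of the 23 were lower, while Cycs (0.50, SE 0.11, adjusted p = 0.0140) and Cox20, an assembly factor of complex IV (0.68, SE 0.20, adjusted p = 0.0414), were higher in F0. In F1 and in F0, no gene of either list was called between diets.

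The mRNAs encoded in mitochondrial DNA were called higher in part. The 13 protein-coding genes of chromosome MT summed to 71542 and 71132 CPM in F0 CD and 55802, 47815 and 43568 CPM in F1 CD. By edgeR's test, 6 of the 13 were called higher in F0 CD and 0 lower, with a median log2 fold change of 0.53, and in the LPD mice 4 were higher and 0 lower, with a median of 0.32. Their sum divided by that of the 87 nuclear genes was 7.75 and 7.72 in F0 CD, 8.03 and 8.02 in F0 LPD and 3.96, 3.67 and 3.51 in F1 CD. The 3 F1 LPD mice were at 5.23, 4.27 and 4.37, above all F1 CD mice, while none of the 13 genes was called between the F1 groups. Mitochondrial ribosomal RNA also took a larger share of reads in the F1 LPD libraries, 13.5% to 18.2% against 9.29% to 12.4% in the other libraries, and its part in this ratio was not tested.

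**Figure D5:**
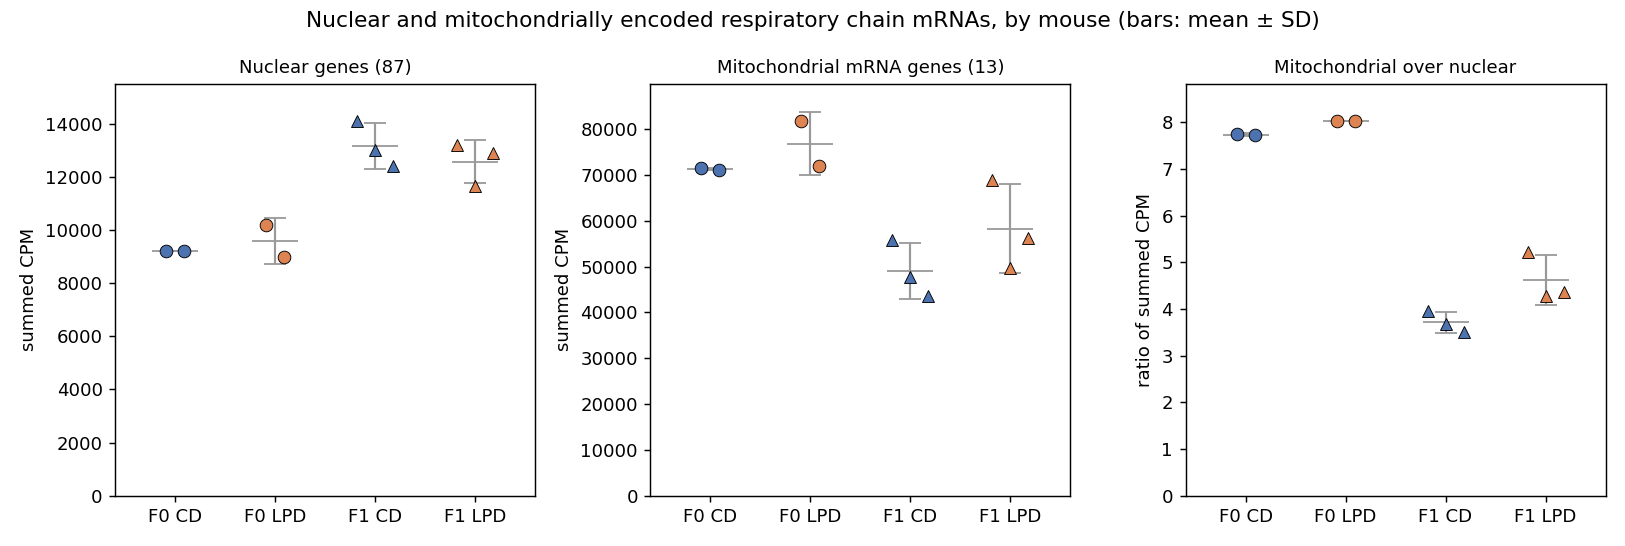
Summed CPM of the 87 nuclear genes, summed CPM of the 13 mitochondrial mRNA genes and their ratio (vertical axes, from 0) in each mouse of the 4 groups, with the mean and SD as bars. The nuclear sum is lower and the ratio higher in all 4 F0 mice than in all 6 F1 mice.

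Markers of cell types rich in mitochondria were compared between the generations as well. The beige or brown fat markers summed to 144 to 271 CPM in F0 CD and 1177 to 1750 CPM in F1 CD, and 5 of the 7 were called lower in F0 CD, among them Cox7a1 (-2.58, SE 0.27) and Cox8b (-1.60, SE 0.23). In the LPD mice the same list summed to 646 to 757 CPM in F0 and 748 to 2273 CPM in F1. These ranges overlapped at their edges. All 7 fold changes were negative there, with a median of -0.66, and 2 of the 7 were called lower. One of these was Ppargc1a (-1.13, SE 0.23, adjusted p = 0.00974 in edgeR's test). Cox7a1 was at -0.66 (SE 0.21, adjusted p = 0.0565) and Cox8b at -0.10 (SE 0.16, adjusted p = 0.721). The 85 members tested had a median of -0.44 in the same fit, with 42 called lower. Skeletal muscle markers were at 3500 to 5428 CPM in F0 CD and 280 to 476 CPM in F1 CD. Of 6 white fat cell markers, 3 were called higher in F0 CD. The part of these markers in the lower level of the members was not tested.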

How the data were processed

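Libraries were made from rRNA-depleted total RNA, and mapping by the authors used CLC Genomics Workbench with genome build mm10. The deposited counts are raw: for each gene, exon, intron and total gene reads were listed by the authors, with unique reads apart; whether strand was used in counting is not given in the sources used here. The deposited RPKM values were scaled by the authors to exon length and library, and the deposited TPM values were not used. Total exon reads (6351075 to 10044546 per library) were tested in R 4.3.3 with edgeR 4.0.16: filterByExpr, TMM and the quasi-likelihood F test, two-sided, with Benjamini-Hochberg adjustment over all genes and a threshold of 0.05. F1 and F0 were fitted apart; the interaction and F0 CD against F1 CD used all 10 libraries. CPM are TMM-scaled over all libraries. Standard errors are the fold change divided by the square root of F. Count limits of 3 reads cover counting error only. The exact permutation test cannot go below 0.1 with 3 mice against 3 or 0.333 with 2 against 2. Replicates of a group are separate mice. Alternatives were DESeq2 1.42.0 and its size factors, other filters, unique or whole-gene reads, limma 3.58.1 on log2(RPKM + 0.1), a replicate block, an exon share covariate and leaving out each mouse.

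Members and lists were chosen with earlier results of these data known. The genes named were those past the threshold (at most 10 by fold change), the rare isoforms and the list of 17 subunits. They also took in the highest and lowest fold change per complex and comparison, among members averaging 1 CPM or more. Others were chosen after their values were seen. Same-numbered mice did not deviate together (correlations of 0.001 to 0.072 in F1 and 0.060 in F0).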

Additional observations from a re-analysis of the deposited data

Results flagged for a closer look

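The diet effect differed between F1 and F0 by edgeR's interaction test for Ppargc1a, Cox7a1 and Cox8b, and for none of the members. Among the other marker lists, 2 of 10 skeletal muscle markers were called higher and 1 of 5 macrophage markers lower in this test. The interaction, F1 effect minus F0 effect on the log2 scale, was 1.44 (SE 0.30, adjusted p = 0.0410) for Ppargc1a, -1.94 (SE 0.35, adjusted p = 0.0221) for Cox7a1 and -1.51 (SE 0.30, adjusted p = 0.0320) for Cox8b. The F1 fold changes of Cox7a1 and Cox8b were -0.45 (SE 0.19) and -0.32 (SE 0.13), neither past the threshold. With 1 mouse left out, the interaction kept its sign in all 10 fits for each gene and passed in 3 for Ppargc1a, 6 for Cox7a1 and 3 for Cox8b. Groups of 2 or 3 mice were too small to test for single outlying mice.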

How the results depend on the processing

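In F1 and in the interaction, 0 members were called under every alternative run, mice left out included. The F0 count of 1 became 4 with no filter and 0 on whole gene reads and on RPKM, and ranged from 0 to 1 with 1 mouse left out (0 without F0 CD replicate 2 or F0 LPD replicate 2). For F0 CD against F1 CD the count of 53 ranged from 31 (without F0 CD replicate 2) to 55. With the replicate number as a block, which does not pair these mice, the calls were 0 in F1 and 5 in F0. They were 0 in the interaction and 58 in F0 CD against F1 CD. The shares over all genes in these alternative fits are not given here. Whether calls changed among the members alone or among all genes thus cannot be told from these counts. With limma on RPKM the median fold change of the members was -0.23 in F1, -0.025 in F0 and -0.37 in F0 CD against F1 CD, where the median of all genes was -0.15, -0.05 and 0.12. The F0 median ranged from -0.065 to 0.12 with 1 mouse left out.

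The log2 ratio of summed CPM in F0, LPD against CD, ranged with 1 mouse left out from -0.040 to 0.14 over all members, -0.013 to 0.16 in complex I, -0.029 to 0.25 in complex III, -0.022 to 0.14 in complex IV and -0.076 to 0.10 in complex V, negative in each without F0 LPD replicate 1. In F1 that of complex V was 0.011 without TMM and ranged from -0.098 to 0.0051 with 1 mouse left out.

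Signs also turned for fold changes near 0 or of few reads, none of them called. In F1, Ndufaf2 was at 0.042 on whole gene reads, Atp5g1 at 0.054 with the exon share as covariate, and Uqcrc2 at -2.91e-05 with no filter, -0.0078 on unique reads, -0.015 on whole gene reads, -0.16 on RPKM, -0.0053 with the 4 groups in one fit, -0.067 with the exon share and -0.020 to 0.036 with 1 mouse left out. With 1 mouse left out, Ndufa4l2 ranged from -0.39 to 0.21 in F1 and -0.030 to 0.69 in F0, and Uqcr11 from -0.31 to 0.13 in F0. In the interaction Uqcr11 ranged from -0.26 to 0.18 and Ndufaf6 from -0.024 to 0.89. In F0 CD against F1 CD, Cox4i2 was at 0.0094 on RPKM and ranged from -0.58 to 0.28, and Cox6b2 from -0.83 to 0.26. Ndufv2 was at 0.0065 with DESeq2, 0.0065 with its size factors, 0.013 with no filter, 0.0082 with at least 10 counts, 0.0044 on whole gene reads, 0.13 on RPKM, 0.12 in the LPD mice and -0.060 to 0.063 with 1 mouse left out. Atp5c1 was at -0.20 in the LPD mice and ranged from -0.021 to 0.14. The cause of these changes was not tested. Depth limits the rare isoforms Cox4i2, Cox6b2, Cox7b2 and Cox8c, at 0 to 24 reads per library. The LPD comparison of generations and the fit of the CD libraries alone were chosen after seeing the data, as were the alternatives for genes outside the name rule.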
